A study of Mus musculus with 4 samples.

Results

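The Ms4a genes lie side by side on mouse chromosome 19 and encode small proteins that cross the plasma membrane several times. 10 of them were followed here across Pich-KO and Pich-WT LSK cells, namely Ms4a1, Ms4a3, Ms4a4b, Ms4a4c, Ms4a4d, Ms4a6b, Ms4a6c, Ms4a6d, Ms4a7 and Ms4a8a. They were taken by gene name from a table of 39186 genes, which holds 19 Ms4a genes in all. The members were chosen with earlier results of these data known.

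Fetal liver cells without lineage markers that carry both Sca-1 and c-Kit are called LSK cells, and hematopoietic stem cells are among them. The samples were 2 Pich-KO and 2 Pich-WT libraries, all of strain C57BL/6, and the methods of the study describe taking LSK cells from embryos at E14.5. Pich-KO embryos carry a small TALEN-made deletion in the second exon of Pich, an X-linked gene for a DNA translocase that acts on the DNA bridges of dividing cells. The deletion is in every cell of the embryo, so cells outside the LSK gate carry it too, and the labels name no other allele or treatment in either group. The labels do not say whether the samples of a group came from separate embryos or were pooled, so p-values measure the spread between these samples only. The lineage antibodies named in the methods recognise CD4, CD8, Gr-1, B220 and Ter119, and the list holds none against a macrophage surface protein.

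The MS4A family is best known through cell type markers. Ms4a1 encodes CD20 of B cells, Ms4a2 the beta chain of the high-affinity IgE receptor of mast cells and basophils, and Ms4a3 marks granulocyte-monocyte progenitors. Ms4a7, Ms4a4a and Ms4a6d are genes of macrophages and monocytes, while Ms4a4b and Ms4a6b have been studied mostly in T cells. Several family members arose by local gene duplication, and their coding sequences are still close.

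Between 14703215 and 20933919 reads fell on genes in a sample. The spread between samples of one group exceeded sampling noise (chi-square per degree of freedom 14.7 for Pich-KO and 8.18 for Pich-WT). Pich-WT sample 2 had 0 reads on 4 Y-linked genes, where the other samples had 1607 to 2848 reads. Expression of Y-linked genes, a sign of male cells, was therefore not balanced between the groups. Any part of sex in the values of the Ms4a genes, which are autosomal, was not tested. Ercc6l, the symbol of the PICH gene in the table, had normalized counts of 1142 and 1232 in Pich-KO and of 772 and 661 in Pich-WT samples. Transcripts of the small-deletion allele are counted here, so this level does not check the genotype labels. Kit, Ly6a and Cd34, which define or enrich the LSK gate, had reads in every sample.

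The cluster spans chr19:10962293-11640851 on GRCm38, and the neighbours Ms4a4c, Ms4a4b, Ms4a6c and Ms4a6b follow one another on the plus strand. Ms4a4c and Ms4a4b share 91.7% of their coding bases and Ms4a6c and Ms4a6b share 85.8%, while Ms4a4d shares 86.1% with Ms4a4c and Ms4a6d shares 81.2% with Ms4a6b. The 250 bases before the start site of these 4 genes are shown, since they were the 4 members called higher in Pich-KO cells and form 2 pairs of near copies. For Ms4a4c and Ms4a6b the RefSeq start site lies inside the gene, whose coordinates here begin at 11404770 and 11516512. Distances to motifs are counted from the RefSeq start sites. Sequences are from RefSeq on GRCm38.p6, written 5′ to 3′, and capitals mark the matches to a motif described after them.
Ms4a4b (chr19:11443308-11443557, plus strand): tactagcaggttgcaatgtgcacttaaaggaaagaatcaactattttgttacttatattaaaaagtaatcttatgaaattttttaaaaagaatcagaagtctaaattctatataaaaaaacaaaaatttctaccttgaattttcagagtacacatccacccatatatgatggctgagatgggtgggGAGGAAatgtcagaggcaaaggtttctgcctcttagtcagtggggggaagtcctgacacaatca
Ms4a4c (chr19:11407411-11407660, plus strand): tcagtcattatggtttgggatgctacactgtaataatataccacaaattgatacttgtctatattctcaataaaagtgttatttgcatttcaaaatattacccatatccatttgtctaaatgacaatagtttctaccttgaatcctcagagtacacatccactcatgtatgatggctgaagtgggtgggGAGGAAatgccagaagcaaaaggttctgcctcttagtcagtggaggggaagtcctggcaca
Ms4a6b (chr19:11518309-11518558, plus strand): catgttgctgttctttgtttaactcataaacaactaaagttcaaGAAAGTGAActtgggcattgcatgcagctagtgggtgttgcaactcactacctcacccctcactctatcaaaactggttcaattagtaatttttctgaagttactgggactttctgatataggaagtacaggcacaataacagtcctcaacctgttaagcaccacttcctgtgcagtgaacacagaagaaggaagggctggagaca
Ms4a6c (chr19:11469118-11469367, plus strand): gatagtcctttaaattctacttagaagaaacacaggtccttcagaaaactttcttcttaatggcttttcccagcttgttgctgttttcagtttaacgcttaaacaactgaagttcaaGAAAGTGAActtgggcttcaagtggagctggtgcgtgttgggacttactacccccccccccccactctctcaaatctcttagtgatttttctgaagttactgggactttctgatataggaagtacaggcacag

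The upstream sequences of Ms4a6b and Ms4a6c were identical at 85.1% of 175 aligned bases, with a longest shared run of 48 bases. Those of Ms4a4b and Ms4a4c were identical at 75.3% of 239 aligned bases, with a longest shared run of 20. Among the other member pairs the highest identity was 63.1%. Motifs of 2 kinds were searched on both strands in windows of 250 bases before to 50 bases after the start, which RefSeq's table gave for 8 of 10 members in 9 windows. GAGGAA, the core that the myeloid and B cell factor PU.1 binds (TTCCTC on the opposite strand), stood 64 bases before the start of Ms4a4b and 61 bases before that of Ms4a4c. It also stood 35 bases after the start of Ms4a3 and 43 bases after the start in 1 of the windows of Ms4a7, so that 4 of 9 member windows held it, against 28.3% of all 32851 windows. The core of the interferon-stimulated response element, GAAA and again GAAA with any 2 bases between them (TTTC and TTTC on the opposite strand), is present in 3.44% of all windows and in 0 of the 9 member windows. A form that lacks the last letter, GAAANNGAA (TTCNNTTTC on the opposite strand), overlaps it and was tried after the sequences had been seen. It was found in 4 of 9 member windows against 8.56% of all windows, as GAAAGTGAA 206 bases before the start of Ms4a6b and 133 bases before that of Ms4a6c, and in both windows of Ms4a7. The windows of Ms4a6b and Ms4a6c are near copies, and those of Ms4a7 belong to a single gene, which was called lower. Because the form was chosen with these sequences seen, its share is no test of enrichment. These matches are a description of letters and not of bound sites.

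Levels per kilobase of the merged exon length listed in the table give the order of the members. In Pich-WT cells Ms4a6c was highest with a mean normalized count of 500.4 per kilobase, followed by Ms4a6d with 398, Ms4a4c with 343 and Ms4a6b with 200.1. In Pich-KO cells the order was Ms4a6c with 888 per kilobase, Ms4a4c with 596, Ms4a6b with 443 and Ms4a3 with 381, while Ms4a6d stood at 122. Further down stood Ms4a3 with 108, Ms4a7 with 55.5, Ms4a4b with 32 and Ms4a1 with 5.04 per kilobase in Pich-WT cells, and Ms4a4b with 54.2, Ms4a4d with 4.42, Ms4a7 with 4.19 and Ms4a1 with 1.80 in Pich-KO cells. In Pich-WT cells the values of neighbours in this order did not overlap from Ms4a6c to Ms4a1. In Pich-KO cells those of Ms4a3 overlapped with Ms4a4c, Ms4a6b and Ms4a6d, and those of Ms4a7 with Ms4a4d and Ms4a1. Ms4a4b has a length of 5274 bases in the table and of 8780 in GENCODE M21, so its level per kilobase depends on the annotation. Ms4a8a (ENSMUSG00000024730, chr19:11067471-11081102, minus strand), a gene of gut epithelium and some macrophages, had 2 reads in Pich-WT sample 2 and 0 in the others, at or under a floor of 3 reads per sample in both groups, and was not tested.

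Of the 9 members tested, 4 were higher and 2 lower in Pich-KO cells at an adjusted p under 0.05 (limma on the log2 of the normalized count plus 1, with Benjamini-Hochberg adjustment). Of all 32428 genes tested, 7.58% were called higher and 9.6% lower, together 17.2%. The median log2 fold change, Pich-KO against Pich-WT, was 0.78 over the tested members and 0.02 over all genes tested. Of all 10 members, 5 had both Pich-KO samples above both Pich-WT samples, 3 had both below and 2 overlapped. Over all genes tested these shares were 28.9% above and 27.2% below, together 56.1%. With 2 samples a group an exact permutation test of one gene cannot give a p below 0.333, and each call depends on limma borrowing variance from other genes. Without the trend of that variance with the mean, no member and no other gene passed in limma, although 4 members higher and 3 lower had an unadjusted p under 0.05. On the recovered reads, edgeR with TMM scaling called 4 members higher and 3 lower, where it called 18.6% of all its tested genes higher, 20.7% lower and 39.3% in either direction. DESeq2 called 4 higher and 2 lower, against 17.6%, 21.4% and 39% of all its genes. When any 1 sample was left out limma called at most 1 member in each direction, Ms4a3 and Ms4a6d without Pich-KO sample 1 and 0 without any of the others.

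**Figure D1:**
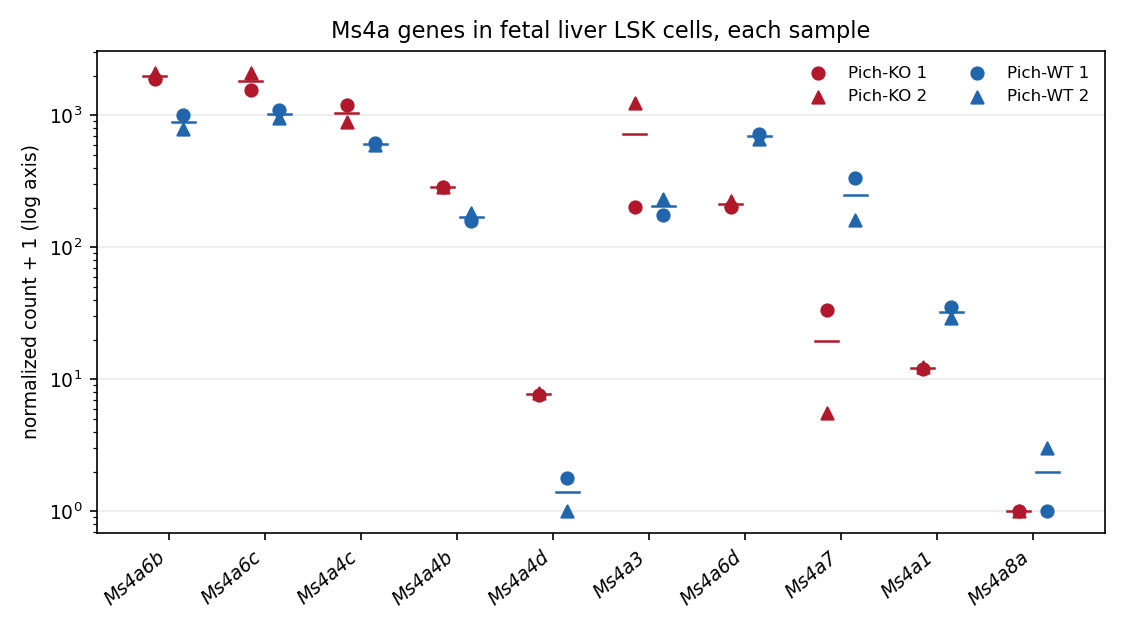
Normalized count plus 1, on a log axis, of each Ms4a member in each sample, with points for the 2 Pich-KO and 2 Pich-WT samples of each gene and a short line for each group mean. Ms4a6b, Ms4a6c, Ms4a4c and Ms4a4b lie higher in both Pich-KO samples, Ms4a6d and Ms4a7 lower, and Ms4a3 is high in Pich-KO sample 2 alone.

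The members called higher were the 4 neighbours on the plus strand. Ms4a6b (ENSMUSG00000024677, chr19:11516512-11531256, plus strand), studied mostly in T cells, had normalized counts of 1872 and 2106 in Pich-KO and of 1003 and 791 in Pich-WT samples. The groups did not overlap, and its mean rose 2.22-fold, from 897 ± 150.2 (SD, n = 2) to 1989 ± 166 (SD, n = 2). The log2 fold change was 1.16 (standard error 0.15, adjusted p = 0.0014 from limma) and lay between 0.98 and 1.33 when any 1 sample was left out.

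Ms4a6c (ENSMUSG00000079419, chr19:11469366-11482192, plus strand), its close copy, had normalized counts of 1558 and 2081 in Pich-KO and of 1103 and 949 in Pich-WT samples. All Pich-KO values were above all Pich-WT values, with a log2 fold change of 0.82 with a standard error of 0.16 (limma adjusted p = 0.0112). Its count is less certain than that of the others. Of its 50-base windows, 51.4% also occur in another gene, mostly in BE692007, which runs through Ms4a6c on the opposite strand. The kit, as the labels name it, does not mark strand, so reads from the overlap cannot be told apart. BE692007 itself had normalized counts of 188 and 228 in Pich-KO and of 97.7 and 95 in Pich-WT samples, with a log2 fold change of 1.10 (adjusted p = 0.0127 from limma).

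Ms4a4c (ENSMUSG00000024675, chr19:11404770-11427246, plus strand) had normalized counts of 1205 and 883 in Pich-KO and of 612 and 591 in Pich-WT samples. The Pich-WT samples lay close together and both Pich-KO samples above them, with a log2 fold change of 0.78 with a standard error of 0.17 (limma adjusted p = 0.0175). The call was lost without a filter on the mean, where the adjusted p was 0.0533. Ms4a4b (ENSMUSG00000056290, chr19:11443553-11463549, plus strand), a membrane protein of T cells that restrains their proliferation, had normalized counts of 288 and 284 in Pich-KO and of 157 and 180.0 in Pich-WT samples. Its samples were close together within each group, and the log2 fold change was 0.76 (standard error 0.19, adjusted p = 0.0308 from limma). Of the 50-base windows of Ms4a4c, 8.19% occur in another gene, most of them in Ms4a4b, so part of their reads may have been exchanged or dropped in counting. The shared part of Ms4a6b was 3.57% and that of Ms4a4b 2.4%.

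Ms4a4d (ENSMUSG00000024678, chr19:11536801-11558467, plus strand), the copy next to Ms4a6b, was at the lower end of detection. It showed 6 reads in either Pich-KO sample against 1 and 0 in the Pich-WT samples, so the Pich-WT group was at that floor. The ratio of the summed reads, corrected for library scaling, was 15.2 with an exact 95% interval of 2.25 to 651, which covers counting error only. It was not called (adjusted p = 0.0574 from limma).

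Ms4a6d and Ms4a7, named above as genes of macrophages and monocytes, were called lower. Ms4a6d (ENSMUSG00000024679, chr19:11586604-11604849, minus strand) had normalized counts of 199.6 and 222.8 in Pich-KO and of 718 and 664 in Pich-WT samples. The groups lay far apart, and the mean fell from 691 ± 38.3 to 211 ± 16.4 (SD, n = 2 each), 3.27-fold lower in Pich-KO cells. The log2 fold change was -1.71 (standard error 0.17, adjusted p = 0.000393 from limma) and lay between -1.79 and -1.63 when any 1 sample was left out.

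Ms4a7 (ENSMUSG00000024672, chr19:11321039-11336146, minus strand), a marker of tissue macrophages, had normalized counts of 32.7 and 4.55 in Pich-KO and of 333 and 161 in Pich-WT samples, from 30, 4, 426 and 161 reads. Both groups were spread widely but did not overlap. Its mean was 13.3-fold lower in Pich-KO cells, with a log2 fold change of -4.09 with a standard error of 0.77 (limma adjusted p = 0.00825). The size rests on the Pich-KO samples, being -5.39 without Pich-KO sample 1 and -2.79 without Pich-KO sample 2.

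Ms4a1 (ENSMUSG00000024673, chr19:11249675-11266241, minus strand) had few reads, 10 and 10 in Pich-KO against 44 and 28 in Pich-WT samples, or normalized counts of 10.9 and 11.4 against 34.4 and 28. Its groups did not overlap, and the log2 fold change of -1.40 (standard error 0.43) was not called (adjusted p = 0.0647 from limma). It passed with edgeR (adjusted p = 0.0365) and with a filter of at least 10 reads in every sample (adjusted p = 0.0143 from limma), but not with DESeq2 (adjusted p = 0.128).

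Ms4a3 (ENSMUSG00000024681, chr19:11629496-11640851, minus strand) stood apart from the other members. Its normalized counts were 201 and 1237 in Pich-KO against 175 and 232 in Pich-WT samples. Pich-KO sample 1 lay between the Pich-WT samples and Pich-KO sample 2 was far above the other samples, so the groups overlapped. The log2 fold change of 1.30 (standard error 0.69) was not called (adjusted p = 0.27 from limma). Without Pich-KO sample 2 it was -0.0061, and without Pich-KO sample 1 it was 2.61 (adjusted p = 0.0456 from limma). Pich-KO sample 2 also had the highest normalized counts of the neutrophil elastase gene Elane, at 3387 against 730 in Pich-KO sample 1 and 722 and 979 in the Pich-WT samples. Elane was named after its values had been seen.

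The other Ms4a genes of the table moved in both directions. Ms4a2 had normalized counts of 53.4 and 103 in Pich-KO and of 16.4 and 15 in Pich-WT samples, and rose with a log2 fold change of 2.18 with a standard error of 0.42 (limma adjusted p = 0.0094). Ms4a4a, a gene of alternatively activated macrophages next to Ms4a7, had normalized counts of 41.4 and 18.2 in Pich-KO and of 388 and 325 in Pich-WT samples. It fell with a log2 fold change of -3.64 with a standard error of 0.38 (limma adjusted p = 0.000552). The groups of both genes did not overlap. Ms4a5, Ms4a10, Ms4a12, Ms4a13, Ms4a14, Ms4a15 and Ms4a18 had at most 13 reads in any sample and none was called (adjusted p from 0.372 to 0.87 from limma). The related membrane protein genes Tmem176a and Tmem176b, which are not in the cluster, both fell, with log2 fold changes of -1.05 (standard error 0.20) and -1.04 (standard error 0.17).

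**Figure D2:**
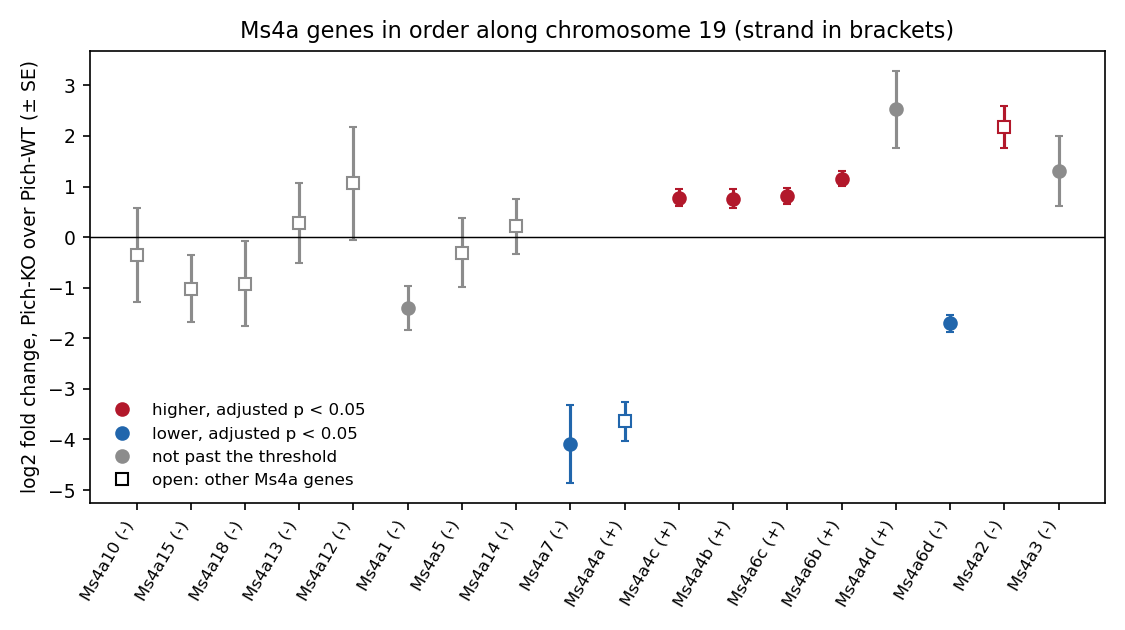
Log2 fold change, Pich-KO against Pich-WT, with its standard error for each tested Ms4a gene (filled circles the members, open squares the other Ms4a genes), drawn in the order of the genes along chromosome 19. Ms4a4c, Ms4a4b, Ms4a6c and Ms4a6b stand above 0 side by side, with Ms4a7 and Ms4a4a on one side and Ms4a6d on the other below 0.

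Along the chromosome, the 4 members called higher were consecutive Ms4a genes. Ms4a7 and Ms4a4a, directly before them, and Ms4a6d, beyond Ms4a4d, were called lower. Of the 60 other genes between the Ms4a genes or within 500 kb of them, 54 were tested, 4 were higher and 2 lower. That is 11.1% called, against 17.2% of all genes tested, and their median log2 fold change was 0.12. Many of these genes had few reads, so this share is not lower at like depth. With at least 10 reads in every sample, 10 of 23 were called, where 2937 of 13924 of all genes were higher and 3135 lower. BE692007 had the largest and AW112010 the smallest log2 fold change among the flanking genes called by the main fit. AW112010 had normalized counts of 106 and 79.6 in Pich-KO and of 443 and 558 in Pich-WT samples, with a log2 fold change of -2.43 with a standard error of 0.23 (limma adjusted p = 0.000358).

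Within each sample, the share of all Ms4a reads does not depend on library scaling. Ms4a6b took 34.1% and 30.1% of the Ms4a reads in the Pich-KO samples (Wilson 95% intervals 32.8% to 35.4% and 29.0% to 31.3%), and 22% and 19.9% in the Pich-WT samples. Ms4a6d took 3.64% and 3.19% in the Pich-KO samples (intervals 3.16% to 4.19% and 2.78% to 3.66%) against 15.7% and 16.7% in the Pich-WT samples. Ms4a6c took 28.4% and 29.8% in the Pich-KO samples against 24.2% and 23.9% in the Pich-WT samples. For Ms4a4c the shares were 22% and 12.6% against 13.4% and 14.9%. For Ms4a4b they were 5.25% and 4.07% against 3.44% and 4.54%, and the groups overlapped for both genes. Ms4a3 took 3.66% and 17.7% in the Pich-KO samples against 3.83% and 5.85% in the Pich-WT samples. These intervals and the floor cover counting error only.

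The reads of Ms4a6d per read of Ms4a6b were 0.107 and 0.106 in the Pich-KO samples against 0.716 and 0.839 in the Pich-WT samples. The 2 Pich-KO samples were nearly equal and lay well below the Pich-WT samples (exact permutation p = 0.333, the smallest these groups can give). Ms4a6b and Ms4a6d had already been called in opposite directions on the same values, so this ratio is a description and no further test. The ratio of Ms4a6c to Ms4a6b was 0.832 and 0.988 in Pich-KO against 1.10 and 1.2 in Pich-WT samples. The ratio of Ms4a4c to Ms4a4b was 4.19 and 3.11 against 3.90 and 3.28, and the groups overlapped.

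**Figure D3:**
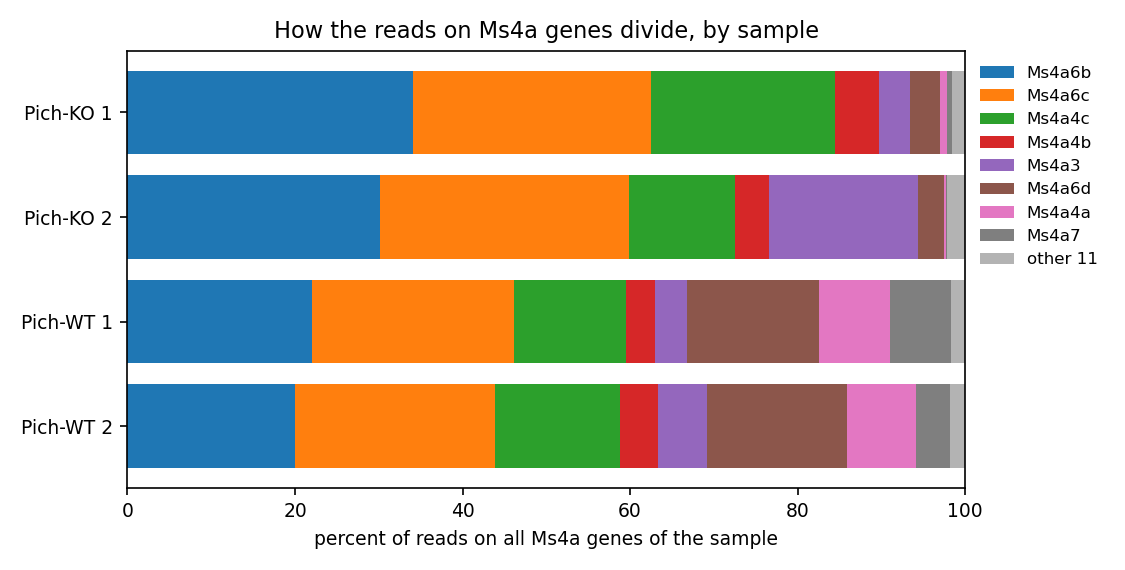
Share of all Ms4a reads, in percent, taken by each gene in each sample. Ms4a6b takes 34.1% and 30.1% in the Pich-KO samples against 22% and 19.9% in the Pich-WT samples, Ms4a6d shrinks from 15.7% and 16.7% to 3.64% and 3.19%, and Ms4a3 takes 17.7% in Pich-KO sample 2.

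Marker lists of the cell types in which Ms4a genes are known were read beside the members. Limma called 25% of the B cell, 27.3% of the mast cell, 33.3% of the granulocyte-monocyte and 41.7% of the stem and progenitor genes. It called 58.3% of the T and NK cell, 61.5% of the monocyte, 62.5% of the hepatoblast and 80% of the erythroid genes. All macrophage and interferon genes were called. Over all genes tested the share was 17.2%. With at least 10 reads in every sample, 2937 of 13924 genes were higher and 3135 lower. The summed levels of the groups overlapped for the B cell list and not for the macrophage, monocyte, T and NK cell, granulocyte-monocyte and mast cell lists, and their part in the results was not tested. In bulk RNA, fewer cells of a type and less RNA per cell cannot be told apart. All 15 macrophage genes were lower in Pich-KO cells, with a median log2 fold change of -4.84. Their summed normalized count was 10093 and 8445 in the Pich-KO samples against 71055 and 74909 in the Pich-WT samples, and Vsig4 was at 0 in Pich-KO sample 2. Csf1r alone made up 72% and 72.4% of the sum in the Pich-KO samples against 22.9% and 23% in the Pich-WT samples. Without Csf1r the sums were 2825 and 2334 against 54748 and 57650. The called genes ranged from Csf1r, the receptor of a macrophage growth factor, at a log2 fold change of -1.33 to the scavenger receptor gene Marco at -7.22. Ms4a7, Ms4a4a and Ms4a6d moved in the same direction as this list, with log2 fold changes of -4.09, -3.64 and -1.71. Ms4a6c and Ms4a4c, to which no cell type was assigned here, moved the other way, with 0.82 and 0.78. Which cells of these samples express each member was not tested.

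Among 13 monocyte and dendritic cell genes, 7 were lower and 1 higher, with a median log2 fold change of -1.28, a smallest value of -7.70 for H2-Aa and the monocyte gene Ly6c2 higher at 2.96. Their sum was 14747 and 16027 in the Pich-KO samples against 39492 and 34370 in the Pich-WT samples. Of 12 T and NK cell genes, 7 were lower and none higher, with a median log2 fold change of -2.13, and called values ran from -2.12 for Cd3g to -3.56 for Cd7. Their sum was 1339 and 1132 against 4203 and 4833. Ms4a4b and Ms4a6b, the members studied in T cells, were called higher.

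Of 12 genes of granulocyte-monocyte progenitors and neutrophil precursors, 3 were higher and 1 lower, with a median log2 fold change of 0.19. Called values ran from 2.73 for the neutrophil protease gene Prtn3 to -1.13 for the transcription factor gene Gfi1. The sum was 66595 in Pich-KO sample 1 and 122957 in Pich-KO sample 2, against 18610 and 21319 in the Pich-WT samples, so sample 2, the one with the high Ms4a3 count, was also the highest here. The myeloperoxidase gene Mpo alone made up 82.1% and 73.6% of the sum in the Pich-KO samples against 55.6% and 58.8% in the Pich-WT samples. Without Mpo, which was singled out after its values were seen, the sums were 11948 and 32465 against 8259 and 8786. Of the 12 genes, 6 lay below both Pich-WT samples in Pich-KO sample 1, and 1 did in Pich-KO sample 2. Of 11 mast cell and basophil genes, 2 were higher and 1 lower, with a median log2 fold change of 0.66. Called values ran from 2.03 for Cpa3, a mast cell protease gene, to -0.58 for Gata2. The defining mast cell genes Fcer1a, Cma1, Tpsb2 and Tpsab1 each had 0 reads in at least 1 sample, and the sum was 6045 and 6310 against 5664 and 5703. Csf2rb alone made up 55.7% and 51.8% of it in the Pich-KO samples against 62.5% and 57.1% in the Pich-WT samples.

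Of 12 B cell genes, 1 was higher and 2 lower, with a median log2 fold change of -0.33, from Rag1 at 1.62 to Fcrla at -3.88. The sum was 3831 and 4985 in the Pich-KO samples against 5458 and 4223 in the Pich-WT samples, and these overlapped, while Ms4a1 did not.

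Of 10 erythroid genes, 8 were lower and none higher, with a median log2 fold change of -1.86, from Klf1 at -0.73 to Alas2 at -3.07, and a sum of 29827 and 32752 against 158598 and 120495. Of 8 hepatoblast genes, 5 were lower and none higher, with a median of -0.82, from Apoa2 at -0.81 to Trf at -2.22. Of 12 stem and progenitor genes, 1 was higher and 4 lower, with a median of -0.40. These were led by Ly6a, the Sca-1 gene used for sorting, at 1.74, and by Procr at -2.88.

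All 24 interferon response genes were higher in Pich-KO cells, with a median log2 fold change of 2.42, from Irf9 at 0.75 to Usp18 at 4.25. The list was chosen with this result known and is no independent evidence of its direction. Its summed normalized count was 105090 and 71818 in the Pich-KO samples against 17215 and 17682 in the Pich-WT samples. Pich-KO sample 1, with the higher sum, was also the higher Pich-KO sample for Ms4a4c, whereas Ms4a6b and Ms4a6c were higher in Pich-KO sample 2. Ms4a4b was nearly equal in them, with normalized counts of 288 and 284. Whether any member follows this list was not tested.

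**Figure D4:**
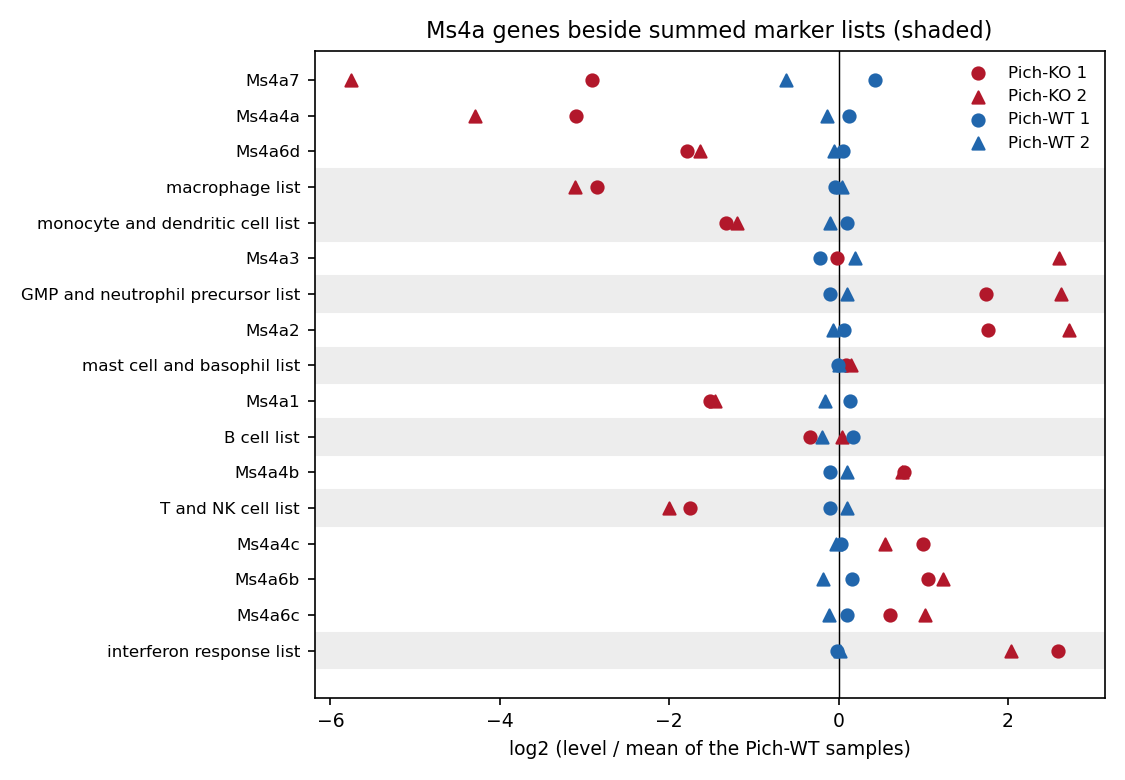
Level in each sample as the log2 of its ratio to the Pich-WT mean, for single Ms4a genes and, on shaded rows, for the summed marker lists. The macrophage list and Ms4a7, Ms4a4a and Ms4a6d lie below 0 in both Pich-KO samples, the interferon response list and Ms4a6b, Ms4a6c, Ms4a4c and Ms4a4b lie above 0, and Ms4a3 and the granulocyte-monocyte list, most of whose sum is Mpo, are highest in Pich-KO sample 2.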

How the data were processed

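The authors deposited one table of 39186 genes. Its deposited sample values are a signal, the authors' normalized counts: reads on each gene divided by 1 size factor per sample. Whole reads were recovered for all values within 0.001 of a whole number. The authors' columns of fold changes, p-values, adjusted p-values and group means were not used. Per the labels, libraries were made with an Illumina TruSeq RNA kit from total RNA, and the submitters' processing notes name Bowtie 0.12.2 and the builds mm8 and mm9. The counter is not given in the sources used here. GENCODE M21 holds 39163 of the genes, 97.8% of them with identical coordinates, so positions are on GRCm38.

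The test was limma 3.58.1 in R 4.3.3 on the log2 of the normalized count plus a pseudocount of 1, with a mean-dependent prior variance, for 32428 genes with a mean of at least 1, two-sided, with Benjamini-Hochberg adjustment over these genes. Fold changes on this scale understate changes of low genes. It was tested on simulated data. Alternatives were a pseudocount of 0.1, no filter, at least 10 reads in every sample, no variance trend, a replicate block, edgeR 4.0.16 with TMM or upper-quartile scaling, DESeq2 1.42.0, and leaving out each sample. Replicate numbers are only numbers in the labels.

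The members and lists were chosen with earlier results of these data known. Every member and other Ms4a gene is named, and of each list the called genes with the largest and smallest log2 fold change. Genes outside this rule are Ercc6l, the gate genes Kit, Ly6a and Cd34, the genes at 0 reads, Elane, Mpo and Csf2rb. Protein identity was not analysed here. Coding-sequence identity from GENCODE M21 and the shorter promoter motif were added after the data had been seen. The ratios between members were not planned. Ms4a1 and Ms4a6d were not in the promoter table.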

Additional observations from a re-analysis of the deposited data

How the results depend on the processing

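Of 103 member values recomputed under the alternatives, 66 kept their direction and side of the threshold, 30 kept the direction but were no longer past it, 6 were newly past it and 1 reversed: the log2 fold change of Ms4a3 was -0.0061 without Pich-KO sample 2 (2.61 without Pich-KO sample 1). Without the variance trend limma called 0 members higher and 0 lower, 0 of all genes in either direction, 0 interferon genes, 0 macrophage genes and 0 flanking genes, with 7377 of all genes at an unadjusted p under 0.05. edgeR with TMM called 3097 genes higher and 3436 lower, and DESeq2 2623 and 3179. Flanking genes called were 3 of 60 without a filter, 10 of 23 with at least 10 reads in every sample and 10 of 30 with edgeR's upper-quartile scaling, against 6 of 54. The shorter promoter motif, tried after the sequences had been seen, matched 4 member windows, against 0.

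When 1 sample was left out, limma called 0 to 1 members higher, 0 to 1 lower, 0 to 548 of all genes higher and 0 to 1193 lower, 0 to 18 interferon genes, 0 to 15 macrophage genes and 0 to 2 flanking genes. Calls were lost altogether without Pich-KO sample 2, Pich-WT sample 1 or Pich-WT sample 2, with 5716 to 7572 genes at an unadjusted p under 0.05. The lone sample was assumed to vary like the other group, and 1 residual degree of freedom was left. Of 36 member values, 35 kept their direction.

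With the replicate number as a block, limma called 6 members higher, Ms4a3 (adjusted p = 5.2e-05) and Ms4a4d (adjusted p = 0.0414) with the others, and 2 lower. It called 3122 of all genes higher and 3874 lower. This fit also left 1 residual degree of freedom, so its p-values rest mostly on variance borrowed from other genes. The values of Ms4a3 overlapped between the groups (adjusted p = 0.27 from limma without the block). The deviations of same-numbered samples from their group means had a correlation of 0.0133 over 10544 genes. With 2 samples a group this is a single value, so it cannot decide whether those samples were handled in pairs. In the labels they share only a number. Low reads limit Ms4a4d, Ms4a8a and Ms4a1.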
